A study of Mus musculus with 6 samples.

Results

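The genes described here are 45 genes of mitosis and the mitotic spindle, chosen as a list by name, with every probe set of the array that carries the symbol of exactly 1 of them. Of the 45, 44 had such a probe set and 99 probe sets stood for them, among 18193 genes with a single symbol on the array. Cyclin B1, Ccnb1, was not analysed here. The arrays measured total liver RNA of 6 male mice aged 3 weeks, 1 array per animal. The 3 control animals had the genotype Srf loxP/+ with the AlfpCre transgene, that is 1 normal and 1 loxP-flanked copy of Srf. The 3 mutant animals were Srf loxP/loxP with the same transgene, and the series' design text describes their tissue as without Srf. Both groups therefore carried Cre, and the controls could lose 1 copy of the gene. AlfpCre places Cre under albumin and alpha-fetoprotein control elements, which act in hepatocytes and bile duct cells and not in the other cells of the liver.

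SRF is a transcription factor of actin cytoskeleton and immediate early genes that act when cells are stimulated to grow. Mitosis is run by cyclin-dependent kinase 1 with its A and B type cyclins. These proteins, together with the Polo and Aurora kinases, assemble the spindle, and a checkpoint holds the anaphase-promoting complex back until all chromosomes are attached. Most of the genes are transcribed only in late S, G2 and M phase, so that their transcripts in a tissue come mostly from cells in the cycle. The liver of a mouse around weaning still grows, and its hepatocytes divide or become polyploid when cytokinesis fails. The comparison asks how these transcripts differ between livers with 1 and with both copies of Srf open to Cre.

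On these arrays a level is the log2 of a probe set's brightness after the arrays were brought to a common trimmed mean, with brightness under 1 set to 1, so that the lowest possible level is 0. Levels are listed in the order of arrays 1, 2 and 3 of a group. The level of probe sets for odorant, pheromone and bitter taste receptors, which liver is assumed not to express, served as background. Its 95th percentile over 83 probe sets was 2.87 in controls and 3.04 in mutants, and a group mean at or below it is called near background. A gene is represented by its probe set with the highest mean level over the 6 arrays. Hepatocyte markers were bright on every array, with a median level over 8 genes between 12.39 and 12.59 in controls and between 12.84 and 13.13 in mutants. Array correlations were 0.937 to 0.941 between controls and 0.827 to 0.907 between mutants. With the controls, mutant 1 had 0.781 to 0.809, mutant 2 had 0.919 to 0.931 and mutant 3 had 0.871 to 0.899. Mutant 2 thus correlated more with each control than with either other mutant. Srf itself (1418256_at) had levels of 5.31, 5.14 and 5.11 in controls and 4.17, 5.24 and 2.54 in mutants (log2 difference -1.20, SE 0.62, adjusted p = 0.398, limma), so that mutant 2 lay within the control range. Its dimmer probe set (1418255_s_at) had 3.00, 3.69 and 3.37 in controls and 3.29, 0 and 1.99 in mutants. The difference there was -1.59 (SE 0.86, adjusted p = 0.411, limma). On this probe set mutant 1 lay within the control range and mutant 2 was at the floor. The positions of both probe sets with respect to the loxP sites were not checked. The ratio of 3' to 5' signal of Pcx, a measure of RNA integrity, ran from 4.44 to 7.03 in controls and from 6.39 to 17.3 in mutants (two-sided exact permutation p = 0.2, adjusted p = 0.2 over 3 ratios). For Gapdh it ran from 0.679 to 0.756 and from 0.773 to 1.01 (exact p = 0.1, the smallest that 3 against 3 arrays allow, adjusted p = 0.2), and for Actb from 1.68 to 2.36 and from 2.36 to 5.33 (exact p = 0.2, adjusted p = 0.2). Its part in the results was not tested beyond a fit with the ratios as a covariate.

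The mitosis and spindle genes were lower in mutant liver across nearly all of their roles. The mean was lower in 42 of 44 genes, against 43.7% of all genes, and the median difference was -2.32 on the log2 scale, against 0.09 over all genes. In 34 genes the mean was lower by at least 1 on the log2 scale, against 8.93% of all genes. All 3 mutant arrays lay below all 3 controls in 32 of the 44 (72.7%), against 8.53% of all genes, and in none did all mutants lie above, against 12%. A limma fit over all probe sets kept, with Benjamini-Hochberg adjustment, called 1 member lower, Cdc20, and none higher, against 0.0837% of genes called lower and 0.0304% called higher. Of single probe sets 1 of the members was called lower and none higher, against 0.0592% and 0.0148% of all probe sets kept. Without a filter on dim probe sets, 32 of the 44 were lower at an unadjusted p under 0.05 and 0 higher, against 5.06% and 6.87% of all genes. The list was chosen with earlier results of these data known, and no test was made over it.

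The size of these differences is limited by background. In 31 of the 44 genes the mutant mean was near background, against 38.3% of all genes, and in 5 of these the control mean was too. With group means raised to the background level, the median difference over the members was -1.38. For such genes a fold is given as a lower bound, with each mutant array raised at least to background. The bounds of 26 genes ran from 1.02-fold to 6.79-fold, with a median of 2.36-fold. In bulk liver, fewer cells in mitosis and less of these transcripts per cell cannot be told apart.

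**Figure D1:**
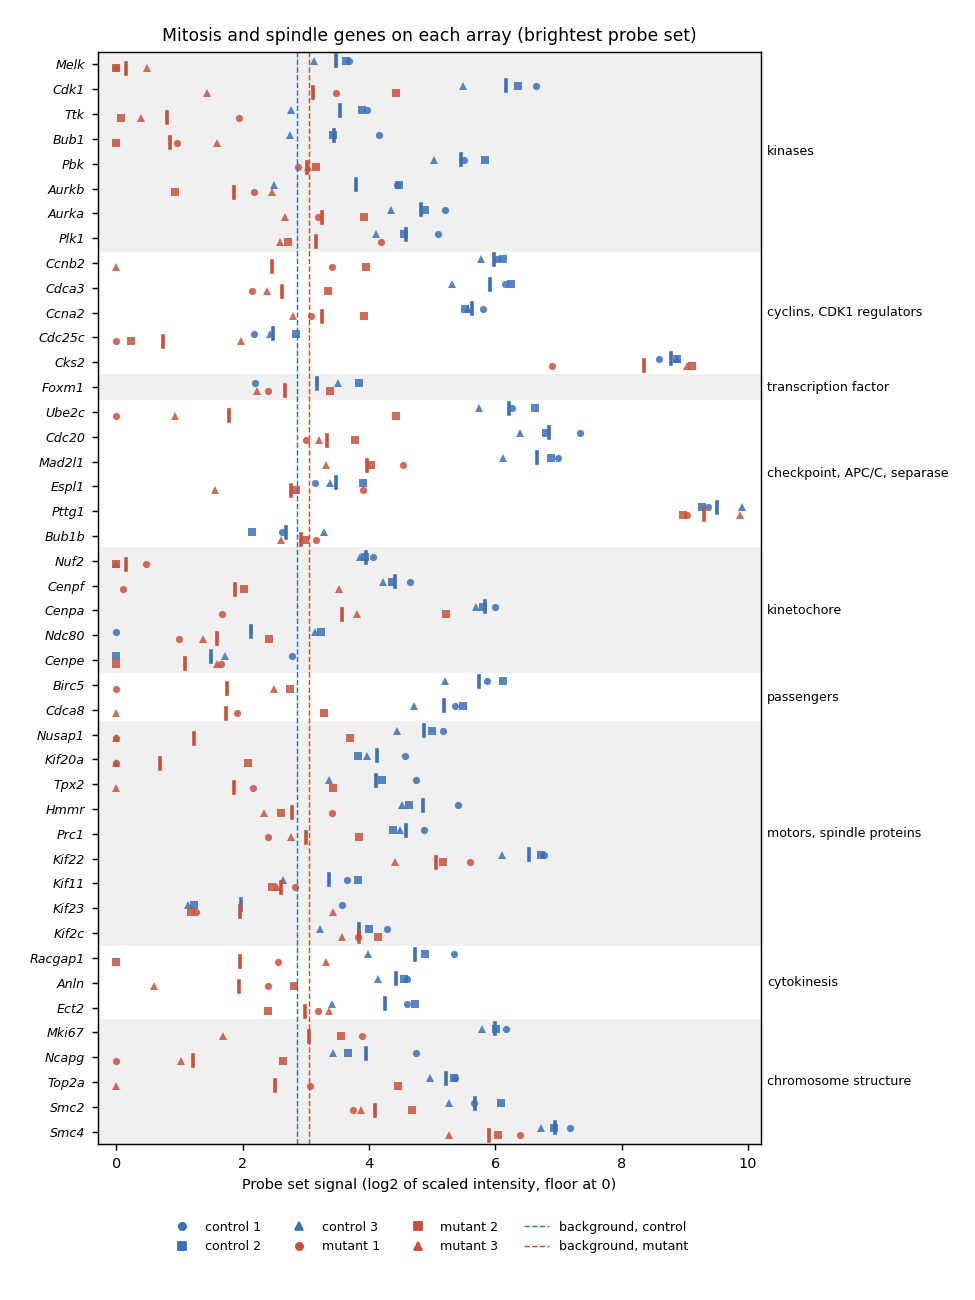
Level of each of the 44 genes on each array (horizontal axis, log2 of scaled intensity of the brightest probe set), grouped by role. Blue symbols are the 3 controls and red symbols the 3 mutants, short bars are group means and dashed lines the background of each group. In 32 genes the red symbols all lie to the left of the blue symbols, and 31 mutant means lie at or left of the red line, while Cks2 and Pttg1 lie far to the right of it in both groups.

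Many mitotic genes are transcribed through short promoter elements, and promoters of 9 of the 12 members with the smallest adjusted p are shown here to let these be seen (all but Pbk, Ccna2 and Kif20a), with those of Cks2 and Pttg1, whose groups overlapped. The CHR, or cell cycle genes homology region, is bound by repressor and activator complexes of the MuvB family, and the CCAAT box by NF-Y. Both lie close to the start of many genes of G2 and M phase. The sequences are those of RefSeq, build GRCm38.p6, from 150 bases before the annotated start to 30 bases after it, and are written 5' to 3' on the gene's strand. Capitals mark a CHR, read as TTTGAA or TTCGAA, or a CCAAT, on either strand, so that TTCAAA and ATTGG mark the other strand. Where the motifs touch or share a base the capitals run on.
Cdc20, chr4:118437314-118437493, minus strand: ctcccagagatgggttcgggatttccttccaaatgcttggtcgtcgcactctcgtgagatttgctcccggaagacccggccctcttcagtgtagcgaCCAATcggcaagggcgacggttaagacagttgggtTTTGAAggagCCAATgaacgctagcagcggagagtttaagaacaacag
Cdca3, chr6:124830026-124830205, plus strand: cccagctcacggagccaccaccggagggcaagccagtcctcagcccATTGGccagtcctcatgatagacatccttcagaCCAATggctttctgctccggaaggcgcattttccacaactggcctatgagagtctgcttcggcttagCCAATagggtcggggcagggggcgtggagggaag
Mad2l1, chr6:66535071-66535250, plus strand: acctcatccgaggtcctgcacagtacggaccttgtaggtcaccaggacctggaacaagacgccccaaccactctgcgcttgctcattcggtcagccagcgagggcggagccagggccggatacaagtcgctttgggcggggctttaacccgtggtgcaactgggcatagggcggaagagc
Birc5, chr11:117849087-117849266, plus strand: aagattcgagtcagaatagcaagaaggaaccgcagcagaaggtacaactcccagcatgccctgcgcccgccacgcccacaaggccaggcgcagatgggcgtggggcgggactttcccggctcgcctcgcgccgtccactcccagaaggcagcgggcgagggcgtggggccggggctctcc
Mki67, chr7:135716350-135716529, minus strand: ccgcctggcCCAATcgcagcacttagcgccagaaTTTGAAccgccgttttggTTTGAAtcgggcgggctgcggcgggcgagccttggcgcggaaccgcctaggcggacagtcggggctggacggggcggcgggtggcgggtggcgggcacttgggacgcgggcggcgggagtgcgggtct
Hmmr, chr11:40733408-40733587, minus strand: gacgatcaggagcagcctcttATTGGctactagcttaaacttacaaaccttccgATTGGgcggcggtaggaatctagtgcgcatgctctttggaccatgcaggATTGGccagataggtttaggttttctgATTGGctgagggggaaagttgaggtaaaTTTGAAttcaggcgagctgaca
Cdca8, chr4:124936888-124937067, minus strand: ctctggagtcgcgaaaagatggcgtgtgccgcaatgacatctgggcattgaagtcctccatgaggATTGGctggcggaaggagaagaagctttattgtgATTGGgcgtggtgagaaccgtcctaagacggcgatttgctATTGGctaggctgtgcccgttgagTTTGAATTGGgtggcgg
Ube2c, chr2:164769779-164769958, plus strand: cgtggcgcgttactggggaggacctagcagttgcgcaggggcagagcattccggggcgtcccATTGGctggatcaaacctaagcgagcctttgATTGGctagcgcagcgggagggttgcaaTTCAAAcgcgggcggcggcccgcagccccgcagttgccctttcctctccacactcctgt
Smc2, chr4:52439071-52439250, plus strand: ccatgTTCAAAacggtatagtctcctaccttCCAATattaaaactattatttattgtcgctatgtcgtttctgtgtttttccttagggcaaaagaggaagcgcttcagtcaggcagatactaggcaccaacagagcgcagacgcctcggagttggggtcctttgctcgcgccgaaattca
Cks2, chr13:51645082-51645261, plus strand: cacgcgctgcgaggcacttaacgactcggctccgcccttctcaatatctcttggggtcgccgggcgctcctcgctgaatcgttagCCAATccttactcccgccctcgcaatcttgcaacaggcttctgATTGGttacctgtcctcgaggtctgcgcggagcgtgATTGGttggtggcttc
Pttg1, chr11:43425952-43426131, minus strand: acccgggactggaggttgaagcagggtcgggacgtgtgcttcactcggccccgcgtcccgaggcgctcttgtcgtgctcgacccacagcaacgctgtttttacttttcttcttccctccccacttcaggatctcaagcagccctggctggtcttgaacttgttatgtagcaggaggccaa

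In the full window from 250 bases before to 50 after the start, 37 of the 45 genes had an entry. A CHR was found in 28 of the 37 (75.7%), against 21.7% of 27025 genes, and a CCAAT in 28 (75.7%), against 41.1%. Both motifs were in 25 (67.6%), against 8.61% of all genes. At least 2 CCAAT boxes were in 18 of the 37 (48.6%), against 13.3%. Counted from the first-listed start of each gene, 27 of 39 CHR matches began within 50 bases of it. In the sequence of Cdc20 the CHR stands just before the start, between CCAAT boxes, while Mki67 has 2 CHR matches further upstream. Cdca3 has its CHR beyond the stretch shown, and Mad2l1, Birc5 and Pttg1 showed neither motif in it. The CArG box, the motif bound by SRF, was in the windows of 0 of the 37 genes, against 1.81% of all genes. A match is only a match of letters, and its absence says nothing about a factor.

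**Figure D2:**
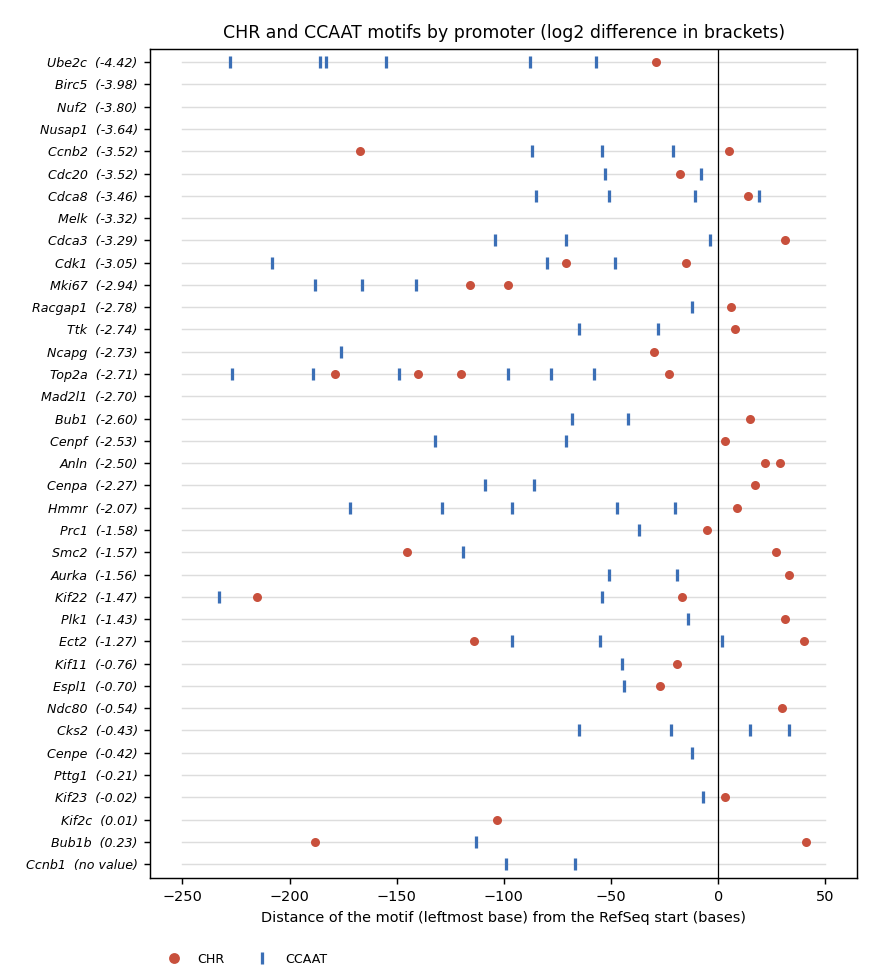
Positions of CHR (red circles) and CCAAT (blue ticks) matches in the RefSeq promoter windows of 37 genes, by distance from the annotated start in bases (where a gene has several starts, that listed first). Genes are ordered by their log2 difference between mutant and control means, given in brackets; Ube2c at -4.42 has the most negative difference, and 27 of 39 CHR matches lie within 50 bases of the start.

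The differences of members with and without the CHR covered overlapping ranges. The 28 with a CHR had a median log2 difference of -2.38, with a range of -4.42 to 0.23, and the 8 measured genes without it had -3.01, with a range of -3.98 to -0.21. Groups were separated, with mutants lower, in 21 of the 28 and in 5 of the 8, against 8.53% of all genes.

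Among the regulators of anaphase, Cdc20, Ube2c and Mad2l1 were lower and the other 3 genes overlapped between the groups. CDC20 activates the anaphase-promoting complex. Its transcript (1439377_x_at) had levels of 7.34, 6.8 and 6.40 in controls and 3.01, 3.78 and 3.2 in mutants. Cdc20 fell 11.4-fold (log2 difference -3.52, SE 0.36, adjusted p = 0.0251, limma), and no mutant came within 2 log2 units of a control. A probe set ending in x_at can also detect related transcripts. A further probe set (1416664_at) gave a difference of -2.85 (SE 0.41, adjusted p = 0.0757), and another (1439394_x_at), near background in controls, gave 0.30 (adjusted p = 0.858). The call was lost without each control and without mutant 3 (adjusted p between 0.0893 and 0.237), without the filter (0.223), without the variance trend (0.0805), with a floor of 8 (0.134) and with the 3' to 5' ratios as a covariate (difference -2.96, adjusted p = 0.198). It was also lost as the mean over its probe sets (difference -2.02, adjusted p = 0.118).

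UBE2C is the ubiquitin-conjugating enzyme that works with the same complex. Ube2c (1452954_at) had levels of 6.26, 6.63 and 5.74 in controls and 0, 4.42 and 0.93 in mutants. Mutants 1 and 3 were at or near the floor, while mutant 2 stayed above background. The mutant mean was at least 6.52-fold lower (fitted log2 difference -4.42, SE 1.02, adjusted p = 0.213). MAD2L1 is the spindle checkpoint protein that holds CDC20 back. Mad2l1 (1422460_at) had 7.0, 6.88 and 6.12 in controls and 4.54, 4.04 and 3.33 in mutants, all above background, a difference of -2.70 (SE 0.40, adjusted p = 0.0757), 6.48-fold.

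Securin, Pttg1, the inhibitor of separase, differed little. Its probe set 1438390_s_at had 9.38, 9.27 and 9.90 in controls and 9.04, 8.98 and 9.88 in mutants, so that the groups overlapped (difference -0.21, SE 0.31, adjusted p = 0.745). A further probe set (1424105_a_at) gave -0.14 (SE 0.27), and another, near background in controls, gave 1.57 (1419620_at, adjusted p = 0.402). Separase, Espl1 (1433862_at), had 3.14, 3.91 and 3.37 in controls and 3.90, 2.85 and 1.56 in mutants, with groups that overlapped (-0.70, SE 0.65). Bub1b, the checkpoint kinase BUBR1, was not settled by its probe sets. The probe set with the highest mean (1447362_at) was near background in both groups and gave 0.23 (SE 0.53). A second (1416961_at), left out by the filter on the mean level, had 2.55, 3.89 and 3.49 in controls and 1.27, 0.13 and 0 in mutants.

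The kinases that drive mitosis were lower in mutants in 8 of 8 genes, with a median difference of -2.52. Mutants lay below controls without overlap in 7, against 8.53% of all genes. The mutant mean was near background in 5 of the 8, and with means raised to background the median was -1.09. No kinase passed the test. CDK1 is the central mitotic kinase. Cdk1 (1448314_at) had levels of 6.64, 6.36 and 5.49 in controls and 3.48, 4.43 and 1.43 in mutants, a difference of -3.05 (SE 0.72, adjusted p = 0.231). Mutant 3 lay below background, and leaving out 1 array gave differences from -3.71 to -2.21. The lowest control lay more than 1 log2 unit above the highest mutant. PBK is a mitotic kinase of dividing cells. Pbk (1448627_s_at) had 5.51, 5.83 and 5.02 in controls and 2.88, 3.16 and 3.04 in mutants, the closest agreement among mutants of the genes shown in full, with an SD of 0.14, and was at least 5.18-fold lower (fitted difference -2.43, SE 0.34, adjusted p = 0.0757).

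Aurora A and Aurora B act at the spindle poles and at the centromere. Aurka (1424511_at) had 5.21, 4.89 and 4.34 in controls and 3.19, 3.91 and 2.68 in mutants (-1.56, SE 0.43, adjusted p = 0.285). Aurkb (1424128_x_at) had 4.44, 4.47 and 2.49 in controls and 2.19, 0.93 and 2.46 in mutants, so that control 3 and mutant 3 nearly met (-1.94, SE 0.73, adjusted p = 0.337). The further Aurkb probe set (1451246_s_at) had 3.09, 3.79 and 2.43 in controls and was at 0 on all 3 mutant arrays. Polo-like kinase 1, Plk1 (1448191_at), was the kinase whose groups overlapped, with 5.10, 4.56 and 4.12 in controls and 4.18, 2.72 and 2.59 in mutants (-1.43, SE 0.52, adjusted p = 0.332). The checkpoint kinases Ttk and Bub1 had fitted differences of -2.74 and -2.6, with bounds of 1.42-fold and 1.32-fold. Melk, left out by the filter, had 3.68, 3.63 and 3.13 in controls and 0, 0 and 0.48 in mutants, a bound of 1.35-fold.

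Among cyclins and regulators of CDK1, 4 of 5 genes were lower without overlap, against 8.53% of all genes. The brightest probe set of Cks2 overlapped. Cyclin A2, Ccna2 (1417910_at), had levels of 5.81, 5.53 and 5.57 in controls and 3.07, 3.91 and 2.79 in mutants (-2.38, SE 0.37, adjusted p = 0.0875), with mutant 3 below background, and its further probe set (1417911_at) gave -1.93 (SE 0.38). Cyclin B2, Ccnb2 (1450920_at), had 6.02, 6.12 and 5.77 in controls and 3.42, 3.95 and 0 in mutants, at least 5.67-fold lower (fitted difference -3.52, SE 0.92, adjusted p = 0.270). Mutant 3 alone was at the floor. CDCA3 helps to destroy the WEE1 kinase at the entry into mitosis. Cdca3 (1452040_a_at) had 6.16, 6.26 and 5.32 in controls and 2.14, 3.36 and 2.38 in mutants, at least 6.79-fold lower (fitted difference -3.29, SE 0.44, adjusted p = 0.0681). Its other probe sets, near background in both groups or in the controls, gave 0.39 (1448001_x_at) and 0.30 (1448000_at). The phosphatase gene Cdc25c was near background in both groups, and no fold is given. CKS2 is a small subunit of CDK1 complexes. Cks2 (1417457_at) had 8.60, 8.87 and 8.88 in controls and 6.90, 9.12 and 9.03 in mutants (-0.43, SE 0.55, adjusted p = 0.707). Without mutant 1 its difference was 0.29. A further Cks2 probe set (1417458_s_at) had 8.53, 8.46 and 8.36 in controls and 6.73, 8.33 and 7.99 in mutants, without overlap (-0.77, SE 0.40, adjusted p = 0.402).

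Both chromosomal passenger genes were lower. Survivin, Birc5 (1424278_a_at), had 5.87, 6.12 and 5.21 in controls and 0, 2.75 and 2.5 in mutants, at least 6.45-fold lower (fitted difference -3.98, SE 0.73, adjusted p = 0.127). Borealin, Cdca8 (1436847_s_at), had 5.37, 5.49 and 4.72 in controls and 1.90, 3.28 and 0 in mutants, at least 4.19-fold lower (fitted difference -3.46, SE 0.78, adjusted p = 0.203). The further probe sets of Cdca8 gave -2.65 (1428481_s_at) and -1.82 (1428480_at).

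Genes of the kinetochore, which ties chromosomes to the spindle, were lower in the mean in 5 of 5. In 3 of them mutants lay below controls without overlap, against 8.53% of all genes. The histone H3 variant of the centromere, Cenpa (1450842_a_at), had 5.99, 5.81 and 5.69 in controls and 1.67, 5.22 and 3.81 in mutants (-2.27, SE 0.78, adjusted p = 0.326). The mutants spread widely, and mutant 2 lay just below the lowest control. Nuf2 (1430811_a_at), left out by the filter, had 4.07, 3.94 and 3.86 in controls and 0.47, 0 and 0 in mutants, a bound of 1.88-fold. Cenpf (1427161_at) gave a fitted difference of -2.53 (SE 0.81) and a bound of 2.31-fold. A further Cenpf probe set (1452334_at), near background in mutants, overlapped between the groups (-0.73, SE 0.78, adjusted p = 0.654, limma). Ndc80 and the motor Cenpe were near background in both groups.

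Spindle motors and microtubule-binding proteins ranged from -3.64 to 0.01, with a median of -1.58. Mutants lay below controls without overlap in 5 of 9, against 8.53% of all genes. KIF20A carries passengers to the midzone for cytokinesis. Kif20a (1449207_a_at) had 4.57, 3.82 and 3.97 in controls and 0, 2.09 and 0 in mutants, at least 2.11-fold lower (fitted difference -3.43, SE 0.75, adjusted p = 0.192). HMMR is a microtubule-binding protein of the spindle pole. Hmmr (1425815_a_at) had 5.41, 4.63 and 4.52 in controls and 3.42, 2.60 and 2.34 in mutants, at least 3.22-fold lower (fitted difference -2.07, SE 0.44, adjusted p = 0.181). The chromosome-arm motor Kif22 stayed above background in both groups on its brightest probe set (1437716_x_at). It had 6.78, 6.73 and 6.11 in controls and 5.60, 5.17 and 4.41 in mutants (-1.47, SE 0.37, adjusted p = 0.249, limma), 2.78-fold. Its further probe sets, near background in mutants, gave -2.27 (1451128_s_at) and -1.80 (1423813_at), both without overlap.

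For other spindle genes the probe sets or arrays disagreed. Tpx2, the activator of Aurora A (1428104_at), had 4.74, 4.21 and 3.37 in controls and 2.16, 3.43 and 0 in mutants, so that mutant 2 overlapped (fitted difference -2.24, SE 0.87, adjusted p = 0.344). Another Tpx2 probe set (1447519_x_at), near background in controls, gave 1.06, with all mutants above all controls (SE 0.47, adjusted p = 0.368). The kinesin Kif2c, which removes tubulin from microtubule ends, had 4.28, 4.01 and 3.22 in controls and 3.83, 4.15 and 3.57 in mutants on its brightest probe set (1454221_a_at; 0.01, SE 0.41, adjusted p = 0.993). A further Kif2c probe set (1437611_x_at) had 4.13, 3.94 and 3.28 in controls and 1.42, 0.30 and 1.73 in mutants (-2.64, SE 0.64, adjusted p = 0.240). The others gave -1.76 (1449060_at) and -0.69 (1432392_at), both with overlap, and the mean over the Kif2c probe sets was -1.27. Thus 3 of 4 probe sets were lower and the brightest was not. The remaining genes Nusap1 and Prc1 had bounds of 3.05-fold and 2.41-fold, and Kif23 was near background in both groups. The motor Kif11 had -0.76 with overlap (1452314_at), -1.58 without overlap (1452315_at) and -1.86 with overlap (1435306_a_at), with bounds from 1.20-fold to 1.25-fold.

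All 3 cytokinesis genes were lower without overlap, against 8.53% of all genes. Racgap1 and Ect2 control the small GTPase that places the contractile ring, and Anln is a scaffold of that ring. Racgap1 (1451358_a_at) had 5.34, 4.89 and 3.98 in controls and 2.56, 0 and 3.32 in mutants, at least 3.03-fold lower, and here mutant 2 was the lowest. Anln was at least 2.62-fold lower and Ect2 at least 2.07-fold lower (fitted differences -2.5 and -1.27, adjusted p = 0.249 and 0.344).

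Chromosome structure genes were lower without overlap in 5 of 5, against 8.53% of all genes. The proliferation antigen Ki-67, which coats mitotic chromosomes, is the gene Mki67 (1426817_at). It had 6.17, 6.01 and 5.79 in controls and 3.89, 3.56 and 1.68 in mutants, at least 5.62-fold lower (fitted difference -2.94, SE 0.56, adjusted p = 0.149). The condensin subunit genes Smc2 and Smc4 stayed above background in both groups. Smc2 (1448635_at) had 5.66, 6.10 and 5.27 in controls and 3.75, 4.67 and 3.88 in mutants (-1.57, SE 0.37, adjusted p = 0.226), 2.97-fold. A dim Smc2 probe set (1429659_at), near background in both groups, gave 0.52. Smc4 (1452197_at) had the smallest difference of the 5 genes, with 7.19, 6.92 and 6.73 in controls and 6.40, 6.04 and 5.26 in mutants (-1.05, SE 0.34, adjusted p = 0.310), and its further probe sets gave -1.65 and -1.57. Topoisomerase II alpha, Top2a (1454694_a_at), had 5.36, 5.34 and 4.97 in controls and 3.07, 4.46 and 0 in mutants (bound 3.24-fold). The condensin subunit Ncapg had a bound of 1.87-fold.

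FOXM1 is the transcription factor of many of these genes. Foxm1 was at the edge of detection, with 2.20, 3.85 and 3.5 in controls and 2.41, 3.38 and 2.22 in mutants (1448833_at; -0.51, SE 0.62, adjusted p = 0.690). Its other probe sets were near background in both groups.

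**Figure D3:**
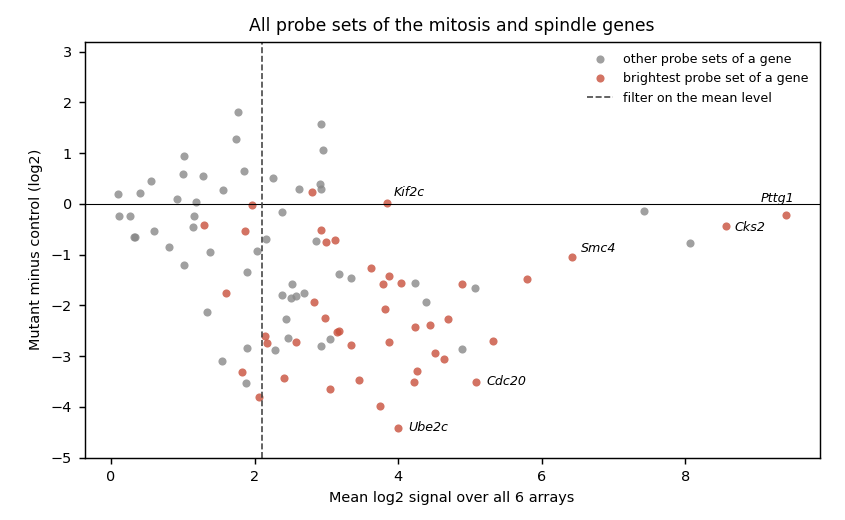
Difference between mutant and control mean log2 level (vertical axis) against the mean level over all 6 arrays (horizontal axis) for the 99 probe sets of 44 genes. Red points are the brightest probe set of each gene, grey points the others, and the dashed line is the filter at 2.10; right of it 57 of 65 probe sets lie below 0 and left of it 22 of 34.

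Of all 99 probe sets, 79 (79.8%) had a lower mean in mutants and 20 a higher one, with a median difference of -1.45, while 44.5% of all single-symbol probe sets were lower. Divided by the mean level over all 6 arrays, 57 of the 65 kept by the filter (87.7%) were lower, against 47.3% of all single-symbol probe sets kept, and their median difference was -1.82. Of the 34 left out, 22 (64.7%) were lower, against 39.1%, with a median of -0.44. Groups were separated with mutants lower in 43 of the 65 (66.2%, against 10.1%) and in 7 of the 34 (20.6%, against 2.90%). The 8 kept probe sets with a higher mean belonged to Bub1b, Cdc20, Cdca3 (2 probe sets), Kif2c, Pttg1, Smc2 and Tpx2. In all but that of Kif2c, at least 1 group mean was near background.

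The 3 mutants were not equally low. The median level over the 44 genes was 5.14, 4.68 and 4.29 in controls 1 to 3 and 2.48, 3.22 and 2.42 in mutants. Relative to each gene's control mean, the median shift was -2.11, -1.73 and -2.13 in the mutants and 0.24, 0.12 and -0.41 in the controls. Over all genes the median shift was 0.08, 0.04 and 0.14 in mutants 1, 2 and 3. Taken alone, mutant 1 lay below all controls in 35 of the 44 genes, mutant 2 in 36 and mutant 3 in 36. The share of all genes for single arrays was not counted, so these counts have no background to be read against. Mutant 2 was the highest mutant in 23 genes. Among controls, control 3 was the lowest in 33 of the 44. Mutants 1, 2 and 3 were at the floor in 7, 5 and 7 genes.

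**Figure D4:**
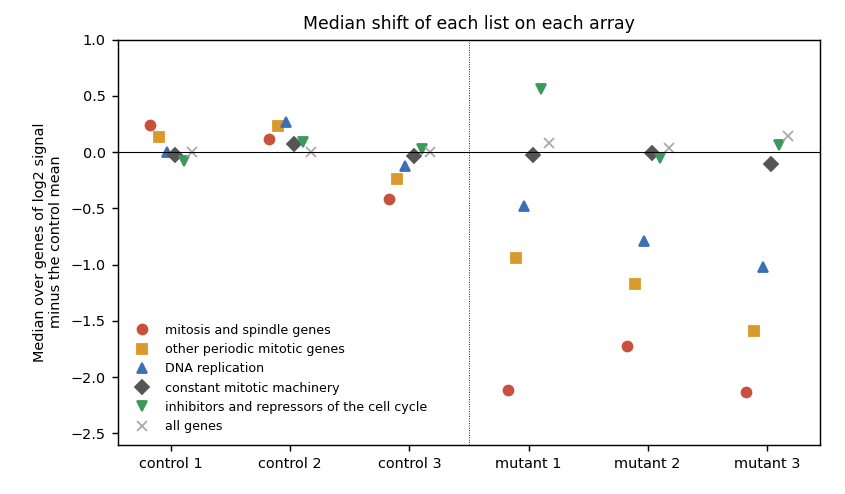
Median over genes of the log2 level minus each gene's control mean (vertical axis) on each of the 6 arrays, for the mitosis and spindle genes and for lists of other cell cycle genes and all genes. The mitosis and spindle genes lie at -2.11, -1.73 and -2.13 in the mutants, the constant machinery between -0.11 and -0.01.

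Other genes of the same process were compared by lists. Of 54 further periodic mitotic genes, whose transcripts change over the cell cycle, 49 had a lower mean, against 43.7% of all genes. The list holds other kinesins, centromere proteins and condensin subunits, among others. Its median difference was -1.46, and mutants were separated and lower in 21, against 8.53% of all genes. With means raised to background this median was -0.51. None passed the test in either direction, and 33 were near background in mutants. Arhgap11a, a regulator of the small GTPase RhoA, was at least 2.27-fold lower (adjusted p = 0.0757). The centromere protein gene Cenpk had -1.94 (SE 0.34, adjusted p = 0.116) and the cohesion protein sororin, Cdca5, had -1.89 (SE 0.36, adjusted p = 0.149). Shcbp1 was at least 3.89-fold lower (adjusted p = 0.15).

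Mitotic machinery that cells keep through the whole cycle was close to the median of all genes. The list of 49 genes holds subunits of the anaphase-promoting complex and cohesin, dynein and tubulin. It had a median difference of -0.07, 29 genes with a lower mean and 20 with a mean not lower. Groups were separated with mutants lower in 6 and higher in 7, against 8.53% and 12% of all genes. On the deposited scaling the median was -0.52 and with median centring -0.30, where the medians of all genes were -0.32 and -0.14. None passed. Zwilch, a kinetochore protein, was at least 2.03-fold lower (adjusted p = 0.218), the dynein heavy chain Dync1h1 had 0.85 (SE 0.24, adjusted p = 0.287), the dynein light chain Dynll1 -1.0 (adjusted p = 0.315) and the anaphase-promoting complex subunit Cdc23 -1.08 (adjusted p = 0.326). In the promoter windows a CHR was found in 28.6% of this list's genes and in 65.2% of the further periodic mitotic genes. Whether the lists differ was not tested.

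DNA replication genes were lower in the mean in 34 of 38, with a median difference of -0.72. They were separated and lower in 16, against 8.53% of all genes. The median was -1.17 on the deposited scaling. None passed. The replication initiation factor Mcm10 (1433408_a_at) had 9.24, 8.78 and 8.0 in controls and 5.82, 6.01 and 5.08 in mutants (-3.04, SE 0.39, adjusted p = 0.0598). Rrm2, a subunit of ribonucleotide reductase, had -2.86 (SE 0.59, adjusted p = 0.167), the clamp loader subunit Rfc5 -1.37 (SE 0.29, adjusted p = 0.173), and Gins2, part of the replicative helicase, was at least 3.30-fold lower. A CHR was in 21.9% of the promoters of this list.

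Inhibitors and repressors of the cell cycle had a median difference of 0.35 over 24 genes, which turned to -0.10 on the deposited scaling and to -0.09 with the 3' to 5' ratios as a covariate. None passed. The antiproliferative gene Btg1 (1426083_a_at) had 9.17, 9.31 and 9.19 in controls and 10.17, 10.18 and 9.85 in mutants (0.84, SE 0.20, adjusted p = 0.240). The stress gene Gadd45b had 2.27 (SE 0.71, adjusted p = 0.307), the pocket protein p107, Rbl1, -1.44 (SE 0.45, adjusted p = 0.307) and E2f5, a repressor E2F, 0.64 (SE 0.23, adjusted p = 0.331).

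**Figure D5:**
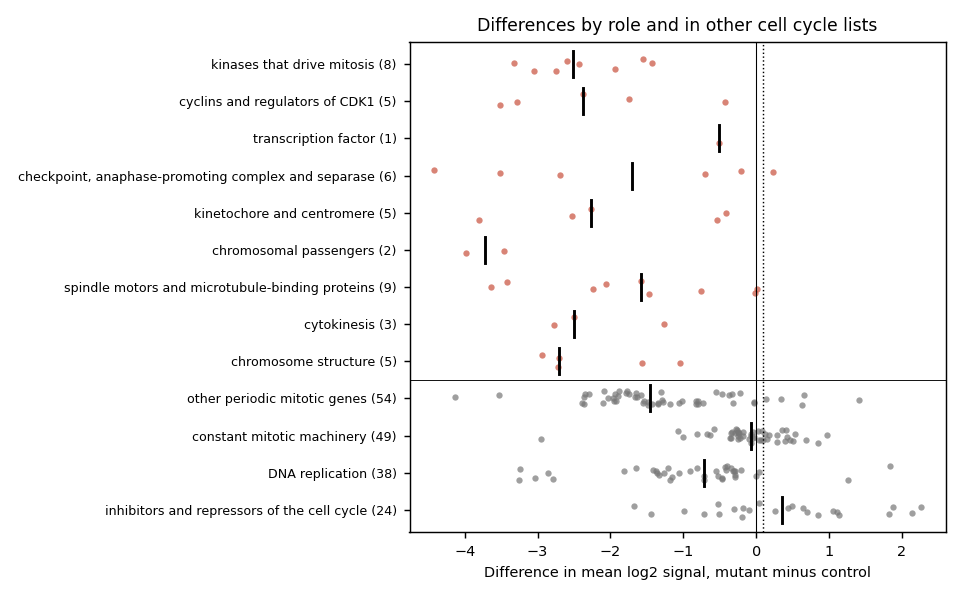
Difference between mutant and control mean log2 level of single genes (horizontal axis), by role for the mitosis and spindle genes (red) and for other cell cycle lists (grey), with the number of genes in brackets. Thick bars are medians and the dotted line is the median of all genes, 0.09. Medians of the roles with at least 2 genes lie between -3.72 and -1.58, and between -2.42 and -0.91 with means raised to background, and the constant machinery lies at -0.07.

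Genes of dividing blood cells were followed because the young liver can still hold them. Of the erythroid markers measured, 6 of 10 had a lower mean in mutants, none passed, and their summed linear signal ran from 531 to 1072 in controls and from 396 to 832 in mutants. Single erythroid genes, named after their values were seen, went in both directions. The heme synthesis enzyme gene Alas2 had 7.71, 8.68 and 7.99 in controls and 2.77, 8.27 and 4.42 in mutants (-2.97, SE 1.19, adjusted p = 0.352, limma). The carbonic anhydrase gene Car1 was at least 3.96-fold lower without overlap (adjusted p = 0.296, limma). Ermap, Hba-a1, Slc4a1 and Rhag were also lower in the mean, with -1.14, -1.05, -0.73 and -0.09. Of these, Hba-a1 and Rhag were near background in both groups. Epor, Tfrc, Gata1 and Klf1 were higher in the mean, with 0.93, 0.39, 0.39 and 0.09, and for Epor all mutants lay above all controls. Granulocyte and myeloid precursor markers had a lower mean in 6 of 9, with sums of 154 to 374 in controls and 134 to 509 in mutants. For B and T lymphocyte markers it was 7 of 9, with sums of 80.9 to 95 and 67.7 to 88.6. Over all genes 43.7% had a lower mean. Mutant means were near background in 4 of 10 erythroid, 5 of 9 granulocyte and myeloid and 7 of 9 lymphocyte markers. With means raised to background, the median differences of these lists were 0.13, -0.20 and 0.09. Sums of the 2 groups overlapped in each of these 3 lists. Kupffer cell markers were lower in 9 of 11 (sums of 1845 to 2535 and 1296 to 1991) and endothelial markers in 7 of 10 (1003 to 1528 and 580 to 1987). Stellate cell markers were lower in 9 of 10, with sums of 2900 to 3120 and 860 to 2949, and their median shift was -2.56, 0.00 and -1.13 in mutants. All mutants, mutant 2 included, lay below all controls in 3 of the 10 stellate genes, Col1a1, Col1a2 and Col3a1, and above them in 0. They also lay below in 3 of the 11 Kupffer cell genes, Adgre1, Timd4 and C1qb, and in 0 of the 10 endothelial genes. In both of these lists they lay above in 0. Over all genes these shares were 8.53% and 12%. Cholangiocyte markers were lower in 1 of 6, with sums of 41.6 to 47.7 and 45.1 to 76.5. No marker of these lists was at 0 on all arrays of a group. The summed signal of the mitosis and spindle genes ran from 2583 to 2871 in controls and from 1041 to 1740 in mutants. Such a linear sum is weighted towards the brightest members, here Pttg1 and Cks2, whose groups overlapped on their brightest probe sets. The part of these cells in the lower mitotic signal was not tested.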

How the data were processed

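Biotin-labelled liver RNA of 3 control and 3 mutant mice was hybridised to 1 array each. Samples were grouped by title. The deposited table holds a linear intensity for each of 45101 probe sets; per the submitters' processing notes the authors' signals came from GCOS, with algorithm and scaling not given in the sources used here. Symbols came from the platform annotation, updated through Entrez identifiers. Here each array was scaled to the mean of the 6 trimmed means (2% at each end), signals under 1 were set to 1 and log2 was taken. The lower 40% by mean level (2.10) were left out, which kept 27022 probe sets and 38 of the 44 members. Groups were compared with limma 3.58.1 (R 4.3.3; variance trend, two-sided, Benjamini-Hochberg over all probe sets kept, threshold 0.05), tested on simulated data. The number of arrays limits the precision.

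The members and lists were chosen with earlier results of these data known. Values per array are given for the 12 members with the smallest adjusted p and those whose kept probe sets disagree in direction (15 members in all); up to 4 genes with the smallest adjusted p are named per further list. Values per array of other members were added after they were seen. Scaling, normalization, filter, floor, pseudocount, variance prior, a replicate block, an RNA integrity covariate, the mean over probe sets and leaving out each array were tried as alternatives.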

Additional observations from a re-analysis of the deposited data

How the results depend on the processing

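Of the 44 members, 36 kept a lower mean in mutants under the main and all 16 alternative settings; Cdc25c was 0 with a floor of 8 and negative otherwise. On the deposited scaling 2 members and 3 member probe sets were called lower, with 18 genes lower and 3 higher over all genes. The median member difference was -2.77 while the median of all genes moved from 0.09 to -0.32. With arrays centred on their median the member median was -2.55. After log2(signal + 32), 10 genes and 10 probe sets were called, with 62 genes lower and 5 higher over all genes, and the member median was -0.53. With a floor of 8 none was called and the median was -1.22. Counts of called genes and probe sets were also 0 without the filter, 0 without the variance trend and 0 with the 3' to 5' covariate, where the median was -1.73. Over the mean of a gene's probe sets the median was -1.41 and Pbk in place of Cdc20 was called, with 13 lower and 4 higher over all genes. With the replicate number as a block, 0 genes and 0 probe sets were called (Cdc20 adjusted p = 0.0583, limma). Deviations of same-numbered arrays from their group means had correlations of -0.04 to 0.04. The sample titles only number the arrays, and correlations from 3 arrays per group cannot decide whether the numbers pair the animals. Leaving out 1 array at a time gave between 0 and 12 genes called, between 0 and 13 probe sets and medians from -2.6 to -2.18. It was 6 genes without mutant 1 and 12 without mutant 2, and 0 without each other array. Over all genes, 72 were called lower and 11 higher without mutant 1, and 236 lower and 74 higher without mutant 2. The cause was not tested.

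Signs turned only for 7 members with small differences or probe sets near background. Bub1b was -0.22 on the deposited scaling, -0.0018 with median centring, -0.012 after quantile normalization, -0.047 with a floor of 8, -0.18 with the covariate and -1.15 over probe sets. Kif2c was -0.44, -0.22 and -0.13 under those scalings, -0.0071 with the pseudocount and -1.27 over probe sets. With the covariate Kif23 was 0.28, Ndc80 0.049 and Cks2 0.86, and over probe sets Kif23 was 0.090 and Pttg1 0.41. Leaving out 1 array gave -0.041 to 0.53 for Bub1b, -0.30 to 0.23 for Kif2c, -0.76 to 0.77 for Kif23, -1.17 to 0.22 for Cenpe, -1.60 to 0.019 for Ndc80 and -0.82 to 0.29 for Cks2. The inhibitor list's median was -0.10 on the deposited scaling and -0.087 with the covariate.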
